A study of Mus musculus with 2 samples.

Results

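Collagens and mesenchymal matrix genes were followed in the embryonic mouse liver as a set of 10 genes, taken by symbol: Col1a1, Col1a2, Col3a1, Col4a1, Col4a2, Dcn, Lum, Sparc, Fn1 and Vim. Each symbol matched 1 row among the 43346 Ensembl gene rows of the tables, and the 10 genes had 56 transcripts. RNA came from livers of B6NCrl mouse embryos at embryonic day 11.5, with tissue pooled over male and female embryos, and the label of replicate 1 names 109 embryos. The 2 libraries, replicate 2 and replicate 1, are biological replicates of this 1 kind of sample, each made by a SmartSeq protocol from an amount of RNA equal to 1 cell. The labels name no transgene, no treatment and no other condition, so no test between conditions exists and every difference below is between these 2 libraries.

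The extracellular matrix is the network of secreted proteins around cells. Fibrillar collagens build its cable-like fibres, type IV collagen builds the sheet-like basement membrane, and proteoglycans and glycoproteins bind both to each other and to receptors on cells. In the liver the fibrillar collagens are mainly made by mesenchymal cells, the stellate cells, portal fibroblasts and their precursors. Hepatocytes also secrete fibronectin into blood plasma, and vimentin is an intermediate filament inside mesenchymal, endothelial and many blood cells.

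The total expected count, the estimated number of reads assigned to all rows, was 32607453 in replicate 2 and 33289699 in replicate 1. Levels are given in TPM, a relative abundance that divides reads by transcript length and sums to the same total in each library. Detection means a TPM of 1 or more. Added spike-in RNAs made up 7.68% of the TPM of replicate 2 and 5.83% of that of replicate 1, and detection was reached by 8342 Ensembl genes in replicate 2 and by 8922 in replicate 1. Counting alone allows a gene with no read to hold up to 3 reads, which is 0.092 CPM (reads scaled to library size, without length) for replicate 2 and 0.0901 CPM for replicate 1. The liver label was matched by the hepatoblast product Afp, at 4016 TPM in replicate 2 and 4870 TPM in replicate 1. Not every hepatoblast marker was read in both libraries, as given with the marker lists below.

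All 10 genes were detected in both libraries. The background for that count was 15.0% of all Ensembl genes, 27.3% of protein-coding genes, 60.1% of genes detected in either library and 77.8% of the 5879 genes in the same range of mean TPM. Their levels summed to 1018 TPM in replicate 2 and 634 TPM in replicate 1, or 0.102% and 0.0634% of all TPM in replicate 2 and replicate 1. The mean share was 0.0826% ± 0.0272 (SD, n = 2). By mean gene TPM, which includes short transcripts described below, the order was Sparc, Fn1, Vim, Col3a1, Dcn, Lum, Col1a1, Col1a2, Col4a1 and Col4a2. For 8 of the 9 neighbouring pairs in this order the ranges over the 2 libraries overlapped. The exception was the step between Col1a2 and Col4a1, so the type IV collagen genes stood below the other 8 genes in both libraries. The genes of 4 of the 9 pairs came in the same order in both libraries.

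**Figure D1:**
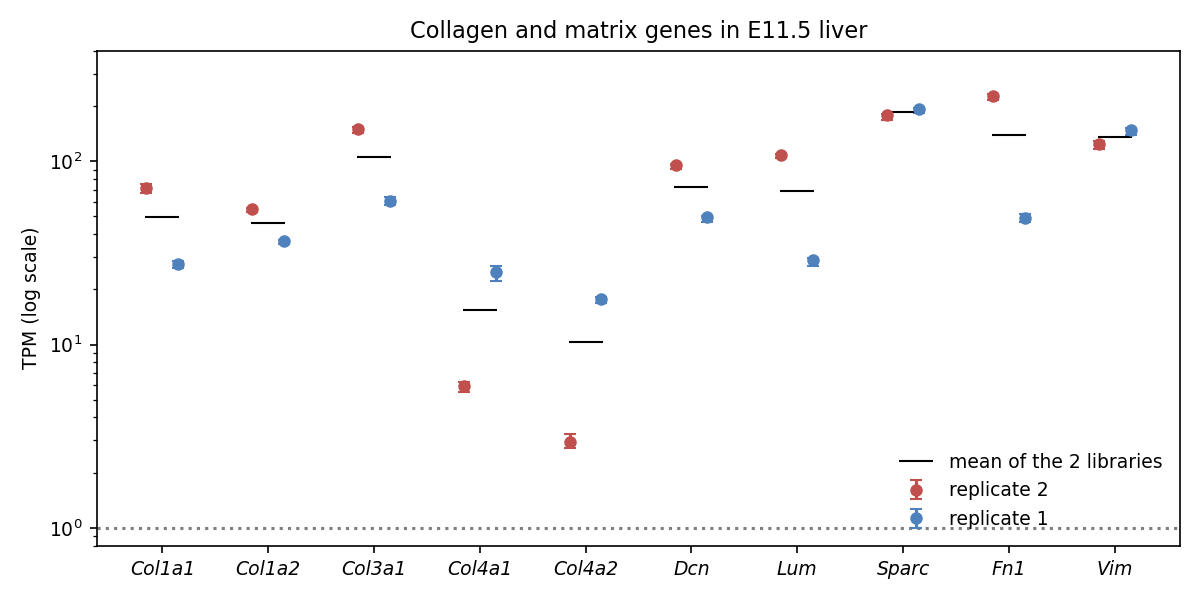
Level of each of the 10 genes in TPM on a log axis, with replicate 2 and replicate 1 as separate points the deposited credibility bounds as bars, short lines at the mean of the 2 libraries and a dotted line at the detection limit of 1 TPM. Sparc and Vim lie close together in the 2 libraries, Fn1 and Lum lie far apart with replicate 2 higher, and Col4a1 and Col4a2 lie far apart with replicate 1 higher.

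Type I collagen, the main protein of connective tissue fibres, is a trimer of chains encoded by Col1a1 and Col1a2. Col1a1 (ENSMUSG00000001506, plus strand, chr11:94936224-94953042 in mm10) had 71.5 TPM from 10628 expected counts in replicate 2 and 27.4 TPM from 4669 expected counts in replicate 1. Its mean was 49.4 ± 31.2 TPM (SD, n = 2), and the level in replicate 2 was 2.61 times that in replicate 1. Col1a2 (plus strand, chr6:4504814-4541544) had 54.9 TPM from 7799 expected counts in replicate 2 and 36.6 TPM from 5659 in replicate 1, a ratio of 1.5 and a mean of 45.7 ± 13.0 TPM. Both chain genes were higher in replicate 2. The ratio of Col1a1 over Col1a2 was 1.30 in replicate 2 and 0.748 in replicate 1, so a different chain gene led in each library, with a mean ratio of 1.03 ± 0.391.

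Col3a1 encodes type III collagen, a fibrillar collagen of pliable tissues that assembles from a single kind of chain. It had 150 TPM from 14005 expected counts in replicate 2 and 60.7 TPM from 9412 expected counts in replicate 1, at chr1:45311538-45349706 on the plus strand. The level was 2.47 times as high in replicate 2 by TPM, while by CPM the ratio was 1.52. The deposited effective length, over which TPM divides the counts, was 3184 bases in replicate 2 and 5249 bases in replicate 1. Col3a1 over the sum of Col1a1 and Col1a2 was 1.18 in replicate 2 and 0.949 in replicate 1, with a mean of 1.07 ± 0.166.

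The start regions of Col1a2 and Col3a1 are printed because these genes encode chains of fibrils that often occur together, yet their windows differ widely in base composition. The sequences are RefSeq promoter windows on GRCm38.p6, from 250 bases before to 50 bases after the annotated start, and 6 of the 10 genes had such a window. Both strands were searched for the CCAAT box (CCAAT or ATTGG), the TATAA box (TATAA or TTATA) and the GC box (GGGCGG or CCGCCC). In the first sequence the capitals mark CCAAT and ATTGG, and in the other they mark the overlapping matches TTATA and TATAA.
Col1a2 (chr6:4505368-4505667, plus strand): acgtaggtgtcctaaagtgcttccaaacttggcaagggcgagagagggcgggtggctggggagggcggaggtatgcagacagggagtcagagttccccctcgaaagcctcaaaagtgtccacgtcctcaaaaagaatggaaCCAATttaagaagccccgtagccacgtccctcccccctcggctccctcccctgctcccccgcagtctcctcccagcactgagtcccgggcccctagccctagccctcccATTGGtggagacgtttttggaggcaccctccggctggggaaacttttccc
Col3a1 (chr1:45311288-45311587, plus strand): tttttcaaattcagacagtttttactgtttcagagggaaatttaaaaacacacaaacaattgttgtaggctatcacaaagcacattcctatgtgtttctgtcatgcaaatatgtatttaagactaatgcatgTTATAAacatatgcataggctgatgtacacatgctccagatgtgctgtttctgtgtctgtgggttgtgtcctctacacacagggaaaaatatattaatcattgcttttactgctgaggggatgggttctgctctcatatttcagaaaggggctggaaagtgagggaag
The Col1a2 window had 61% G and C, 13 CpG sites and 2 GC boxes. Its CCAAT matches began 109 bases before the RefSeq start, chr6:4505618, and at that start itself. In GENCODE M21 the longest coding transcript of Col1a2 begins at chr6:4505493 instead, so these positions hold for the RefSeq start alone. The Col3a1 window had 37.7% G and C and 0 CpG sites, and its TATAA matches began 118 and 117 bases before the start. The median over 32851 windows was 52.7% G and C. Of all windows 37.4% held a CCAAT match, 24.9% a TATAA match and 35.7% a GC box, so each match is a description of letters and not of a factor's site.

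Type IV collagen is the network-forming collagen of basement membranes, and its common form combines the chains of Col4a1 and Col4a2. Col4a1 (minus strand, chr8:11198423-11312826) had 5.94 TPM from 1137 expected counts in replicate 2 and 24.8 TPM from 3435 expected counts in replicate 1. Col4a2 (plus strand, chr8:11312805-11449287) had 2.94 TPM from 549 expected counts in replicate 2 and 17.8 TPM from 3333 in replicate 1. Both genes were lower in replicate 2, opposite in direction to the fibrillar collagen genes. The level in replicate 1 was 4.18 times that in replicate 2 for Col4a1 and 6.04 times for Col4a2. By gene TPM, Col4a1 was above Col4a2 in both libraries, with a ratio of 2.02 in replicate 2 and 1.40 in replicate 1, or 1.71 ± 0.439 on average. In replicate 1 this order rested on a short transcript of Col4a1, described with the transcripts below.

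The 2 type IV genes lie head to head, and their annotated first exons overlap by 22 bases on opposite strands. Their RefSeq windows share 78 bases, chr8:11312777-11312854, shown in capitals in the Col4a1 window because the same stretch falls in the start windows of both genes.
Col4a1 (chr8:11312777-11313076, minus strand): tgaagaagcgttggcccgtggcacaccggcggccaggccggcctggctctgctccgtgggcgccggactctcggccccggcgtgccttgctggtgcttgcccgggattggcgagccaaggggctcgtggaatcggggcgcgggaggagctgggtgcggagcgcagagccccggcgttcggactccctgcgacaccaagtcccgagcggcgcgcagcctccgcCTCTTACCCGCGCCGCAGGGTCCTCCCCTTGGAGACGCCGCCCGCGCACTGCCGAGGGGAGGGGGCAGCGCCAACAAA
The Col4a1 window had 74% G and C with 37 CpG sites, and the Col4a2 window 73.7% with 33 CpG sites. These were the most G and C rich windows of the 6 that were matched, where Sparc had 55.3% with 4 CpG sites and Vim 59.3% with 11. Whether counting used strand is not given in the sources used here, and reads from the 22 shared bases cannot be placed without it. Annotated antisense genes over Col4a1, Col4a2 and Fn1 (Gm15418, Gm15419 and Apol7d) were at TPM 0 in both libraries.

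Summed over the family members in the set, the fibrillar collagen genes had 276 TPM in replicate 2 and 125 TPM in replicate 1. The type IV genes summed to 8.88 TPM in replicate 2 and 42.6 TPM in replicate 1. Fibrillar over type IV was therefore 31.1 in replicate 2 and 2.92 in replicate 1. The 2 sums differed in opposite directions, so their quotient differs by more than either sum by construction. Both sums include short transcripts, described below, of Col3a1 in replicate 2 and of Col4a1 in replicate 1.

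Decorin and lumican are small leucine-rich proteoglycans that bind collagen fibrils and regulate their diameter. Dcn (plus strand, chr10:97479609-97518143) had 95.2 TPM from 4996 expected counts in replicate 2 and 49.3 TPM from 2605 in replicate 1. Its mean was 72.3 ± 32.4 TPM. Lum, its neighbour on the same strand at chr10:97565128-97572703, had 108 TPM from 6272 expected counts in replicate 2 and 28.8 TPM from 1684 in replicate 1. Both were higher in replicate 2, by 1.93 times for Dcn and 3.75 times for Lum. Dcn over Lum was 0.881 in replicate 2 and 1.71 in replicate 1, so the leading proteoglycan gene changed between the libraries.

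Sparc encodes osteonectin, a collagen-binding glycoprotein that takes part in matrix assembly. It was the highest of the set by mean, with 178 TPM from 8099 expected counts in replicate 2 and 192 TPM from 8693 in replicate 1 (minus strand, chr11:55394500-55423183). Vim (plus strand, chr2:13573927-13582826) had 124 TPM from 5549 expected counts in replicate 2 and 148 TPM from 5548 in replicate 1. These were the closest pairs of values in the set, with ratios of replicate 2 over replicate 1 of 0.925 for Sparc and 0.842 for Vim. The means were 185 ± 10.1 TPM for Sparc and 136 ± 16.6 TPM for Vim.

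Fn1 encodes fibronectin, the glycoprotein that links collagen fibres to integrins and serves as a scaffold for fibril assembly. It had 228 TPM from 23015 expected counts in replicate 2 and 48.7 TPM from 7090 in replicate 1 (minus strand, chr1:71585520-71653200). By gene TPM it was the highest of the 10 genes in replicate 2 and the fifth in replicate 1, with a mean of 138 ± 127 TPM. These ranks include short transcripts, described below. On full-length coding transcripts alone, also defined below, Fn1 had 56.7 TPM in replicate 2. That was below Sparc at 109 TPM and Lum at 108 TPM. The TPM ratio was 4.68, and the CPM ratio was 3.31.

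On the log2(TPM + 1) scale the difference between libraries was taken as replicate 2 over replicate 1, centred on the median of the 6801 genes whose mean TPM was 10 or more. By a rule of size at 2-fold, without a test, 4 of the 10 genes were higher in replicate 2, against 25.2% of all genes. These were Fn1 with a centred log2 ratio of 2.18, Lum with 1.84, Col1a1 with 1.33 and Col3a1 with 1.26. Col4a2 with -2.28 and Col4a1 with -1.92 were lower in replicate 2 by the same rule, which 25.8% of all genes met. Dcn at 0.91, Col1a2 at 0.55, Sparc at -0.14 and Vim at -0.27 stayed within 2-fold.

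Differences of this size were common in the 2 libraries, where 51.1% of all genes passed 2-fold in either direction, against 6 of the 10 genes in the set. Among genes in the set's range of mean TPM, from 10.3 to 185, the share was 56.0%. Spike-ins in that range, which are added RNAs and not liver RNA, passed it in 18 of 22 cases, or 81.8%. The median centred log2 ratio was 0.73 for the set, against 0 for all genes and 0.02 for genes in the same range, and the median absolute ratio was 1.30 for the set, against 1.03 for all genes and 1.20 for genes in the range. The deposited credibility bounds of TPM did not overlap between the libraries for any of the 10 genes, which also held for 91.3% of all genes tested, since these bounds cover the reads of 1 library and not the difference between libraries. In bulk tissue, fewer cells of a type and less RNA per cell cannot be told apart. Neither can be told apart here from differences between 2 library preparations, each from RNA equal to 1 cell. No cause was tested.

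**Figure D2:**
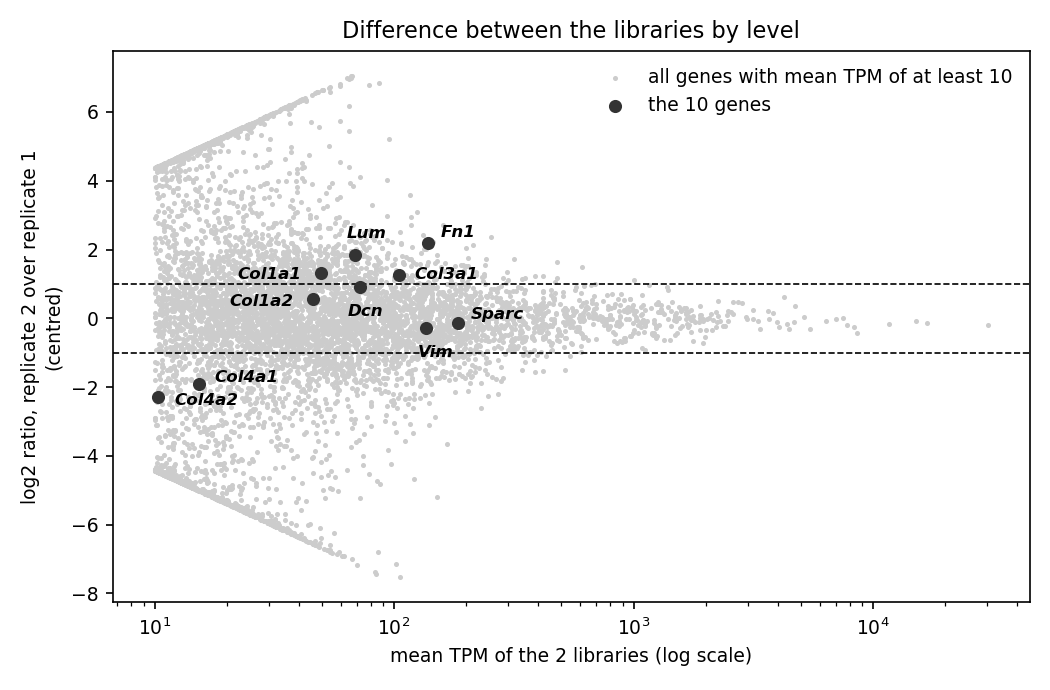
Centred log2 ratio of replicate 2 over replicate 1 against mean TPM on a log axis, with grey points for all genes whose mean TPM is 10 or more, dark points for the 10 genes and dashed lines at 2-fold. Fn1, Lum, Col1a1 and Col3a1 lie above the upper line, Col4a1 and Col4a2 below the lower line, and the grey points spread far beyond both lines.

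Centring on the spike-ins moved every gene by 0.393 on the log2 scale. Then 1350 genes were higher and 2245 lower in replicate 2 by 2-fold, so 37.6% of the genes past 2-fold were higher, against 49.4% with the median of genes as centre. Under that centring Lum at 1.45 and Fn1 at 1.78 still passed 2-fold, while Col1a1 at 0.94 and Col3a1 at 0.87 did not. The type IV collagen genes stayed lower in replicate 2 by more than 2-fold. The spike-ins were themselves scattered, so their centre is not a firmer reference. The 22 in the set's range had a median absolute ratio of 1.76 with the gene centre, against 1.03 for all genes.

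The transcripts behind these gene levels were compared next. Lum has a single transcript. Of the other 9 genes, 7 had the same transcript at the highest TPM in both libraries, against 62.4% of the genes with at least 2 transcripts that were compared. Vim and Fn1 had different leading transcripts. For Vim it was a coding transcript of 1777 bases in replicate 2, with 42.76% of the gene's TPM there and 34.44% in replicate 1. In replicate 1 it was a retained-intron fragment of 535 bases, with 22.99% in replicate 2 and 40.93% in replicate 1.

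A full-length coding transcript was defined as annotated protein-coding with at least 80% of the length of the gene's longest such transcript. These transcripts held 100% of the TPM of Col4a2, Dcn and Lum in both libraries. By TPM, Col3a1 differed most among the collagens, with 52.7% in replicate 2 and 95.5% in replicate 1. By expected counts its share was 90.5% in replicate 2 and 99.5% in replicate 1, and Col1a2 differed more, with 88.4% in replicate 2 and almost all reads in replicate 1. The rest of the Col3a1 signal in replicate 2 lay almost wholly on a short transcript of 737 bases. This transcript had 70.8 TPM from 1326 expected counts in replicate 2 and 2.61 TPM from 49.3 in replicate 1. The full-length Col3a1 transcript itself had 79.0 TPM in replicate 2 and 57.9 TPM in replicate 1. Counted on full-length transcripts alone, a choice made after the data were seen, its centred log2 ratio was 0.41 instead of 1.26 and no longer past 2-fold.

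Full-length transcripts of Col1a1 held 86.2% of its TPM in replicate 2 and 99.0% in replicate 1. For Col1a2 the shares were 81.4% in replicate 2 and 99.8% in replicate 1, and a retained-intron transcript took 17.8% in replicate 2 and 0.03% in replicate 1. Col4a1 went the other way, with 100% in replicate 2 and 69.1% in replicate 1, where a retained-intron fragment of 673 bases took 30.9%. Without that fragment, Col4a1 had 17.2 TPM in replicate 1, slightly below Col4a2 at 17.8 TPM. In replicate 2 it stayed above Col4a2, at 5.94 against 2.94 TPM. Sparc was alike in both, with 61.5% in replicate 2 and 59.6% in replicate 1, and a retained-intron fragment of 741 bases led in both. For Vim the shares were 75.7% in replicate 2 and 58.8% in replicate 1, and its centred log2 ratio of -0.27 turned to 0.09 on full-length transcripts. Short fragments give a high TPM from few reads, since counts are divided by length.

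**Figure D3:**
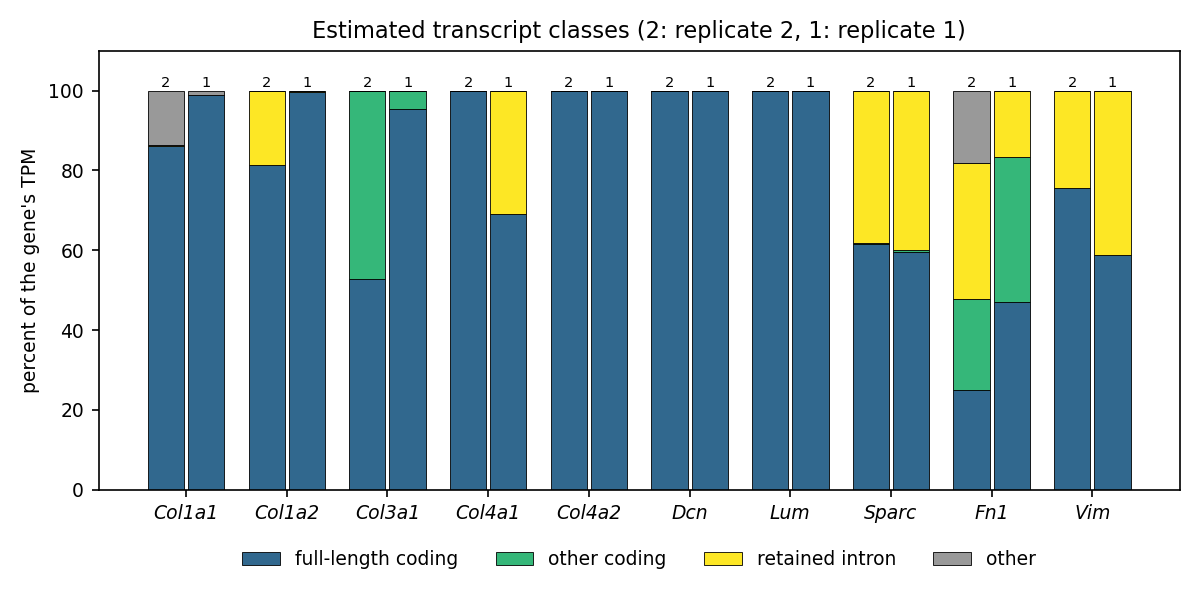
Percent of each gene's TPM on full-length coding, other coding, retained-intron and other transcripts, stacked from 0, with a bar for replicate 2 left of the bar for replicate 1. Fn1 has the lowest full-length shares, Col3a1 differs most between the libraries among the collagens, and Dcn, Lum and Col4a2 are at 100% in both.

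Fibronectin is known for alternative splicing. Plasma fibronectin, made by hepatocytes, lacks the extra domains B and A, while cellular fibronectin of mesenchymal and other cells can include them. The exons EIIIB and EIIIA encode these domains, and they are printed whole because the forms of Fn1 differ by their presence. Both lie inside the coding sequence, have lengths that are multiples of 3 and are read here from GENCODE M21 transcripts on mm10, minus strand.
EIIIB (chr1:71613763-71614035, 273 bases): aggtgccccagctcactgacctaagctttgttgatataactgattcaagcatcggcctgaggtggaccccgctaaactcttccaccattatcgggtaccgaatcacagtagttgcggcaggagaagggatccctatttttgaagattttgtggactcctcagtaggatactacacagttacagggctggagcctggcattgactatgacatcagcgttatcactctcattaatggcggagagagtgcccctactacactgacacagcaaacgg
EIIIA (chr1:71603660-71603929, 270 bases): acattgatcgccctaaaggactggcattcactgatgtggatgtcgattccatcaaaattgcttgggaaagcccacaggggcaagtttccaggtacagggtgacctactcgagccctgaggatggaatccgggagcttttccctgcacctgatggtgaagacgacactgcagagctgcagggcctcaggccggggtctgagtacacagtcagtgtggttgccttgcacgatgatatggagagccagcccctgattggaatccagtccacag
EIIIB had 49.5% G and C and EIIIA 54.8%. Fn1 has 7 full-length coding transcripts, of which 1 includes EIIIB and 4 include EIIIA.

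The full-length transcripts held 24.9% of Fn1 TPM in replicate 2 and 47.0% in replicate 1. They summed to 56.7 TPM in replicate 2 and 22.9 TPM in replicate 1, so on these transcripts alone the centred log2 ratio of Fn1 was 1.25 instead of 2.18, still past 2-fold. The form with both exons had 11.2 TPM in replicate 2 and 16.5 TPM in replicate 1. The form with EIIIA and without EIIIB had 14.1 TPM in replicate 2 and 6.40 TPM in replicate 1. Transcripts with neither exon had 31.4 TPM from 7021 expected counts in replicate 2 and were listed at 0 in replicate 1.

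Within the full-length forms, EIIIB was thus in 19.7% of TPM in replicate 2 and 72.0% in replicate 1, and EIIIA in 44.6% in replicate 2 and 100% in replicate 1. By the deposited posterior means, which spread some abundance over every transcript, EIIIA was in 45.3% in replicate 2 and 96.5% in replicate 1. The form without both exons therefore made up 55.4% in replicate 2, and both exons were at a higher share in replicate 1. A listed 0 of a transcript is an estimate that shares reads among overlapping forms and not a count of 0 reads over a junction.

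Shorter transcripts carried most of the Fn1 TPM but not most of its reads, since the full-length forms held 56.5% of the gene's expected counts in replicate 2 and 77.6% in replicate 1. A retained-intron transcript of 4022 bases that spans the EIIIA position without the exon led in replicate 2, with 60.1 TPM there and 7.96 TPM in replicate 1. A coding transcript of 1350 bases at the start of the gene led in replicate 1, with 52.3 TPM in replicate 2 and 17.7 TPM in replicate 1. A fragment of 426 bases annotated for nonsense-mediated decay had 41.3 TPM in replicate 2 and 0 in replicate 1. Over all 8 transcripts that span EIIIA, the exon was in 21.6% of TPM in replicate 2 and 74.2% in replicate 1, and over the 8 that span EIIIB it was in 17.5% in replicate 2 and 72.0% in replicate 1. The order of the libraries was the same as in the full-length forms.

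**Figure D4:**
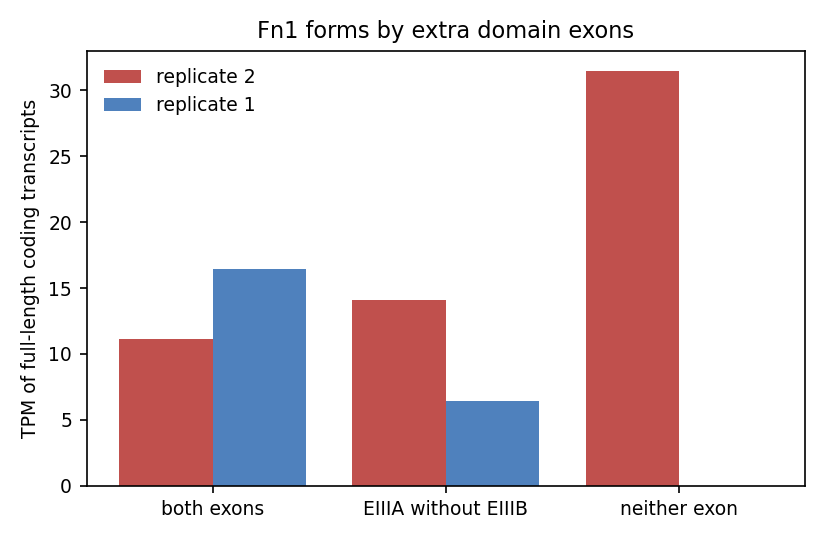
TPM of the full-length coding Fn1 transcripts by exon content, with replicate 2 and replicate 1 as separate bars from 0. Forms with neither exon are at 31.4 TPM in replicate 2 and listed at 0 in replicate 1, while the form with both exons is at 11.2 TPM in replicate 2 and 16.5 TPM in replicate 1.

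The wider collagen family put the member genes in scale. Of 44 protein-coding collagen chain genes, 10 were detected in both libraries, 2 in replicate 2 alone, 2 in replicate 1 alone and 30 in neither, of which 24 had no read. The background for this count and for the lists below is the share of all protein-coding genes. It was 27.3% in both, 7.07% in replicate 2 alone, 9.68% in replicate 1 alone and 55.9% in neither. The family summed to 401 TPM in replicate 2 and 238 TPM in replicate 1, and the 5 collagen genes of the set held 71.1% of that in replicate 2 and 70.1% in replicate 1. Their joint share was thus close in the 2 libraries while the balance between fibrillar and type IV genes was not. Of the other collagens, Col6a3, a chain of microfibrillar type VI collagen, had 61.9 TPM in replicate 2 and 4.21 TPM in replicate 1.

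Among 8 other fibrillar collagen genes, 3 were detected in both libraries, 1 in replicate 2 alone and 4 in neither. Col5a2, a chain of the type V collagen that nucleates fibrils, had 17.3 TPM in replicate 2 and 16.7 TPM in replicate 1, and its partner Col5a1 had 11.2 TPM in replicate 2 and 19.3 TPM in replicate 1. Col2a1, the cartilage collagen, had 3.98 TPM in replicate 2 and 2.38 TPM in replicate 1, Col11a1 had 0.03 TPM in replicate 2 and 0.53 TPM in replicate 1, and Col11a2 and Col24a1 had no read. Of 15 further collagens, 2 were detected in both, 11 in neither and 2 in replicate 1 alone. Col18a1, a basement membrane collagen, had 8.30 TPM in replicate 2 and 21.7 TPM in replicate 1, the same direction as the type IV genes. Col12a1 had 0.04 TPM in replicate 2 and 4.27 TPM in replicate 1, and Col13a1, Col15a1 and Col16a1 had no read.

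Of 11 laminin and other basement membrane genes, 3 were detected in both libraries, 2 in replicate 2 alone, 2 in replicate 1 alone and 4 in neither. They did not share the direction of Col4a1 and Col4a2. Lama4, a laminin chain of vessels, was unread in replicate 2, against 47.9 TPM in replicate 1, while Lamc1, the common gamma chain, had 24.8 TPM in replicate 2 and 6.62 TPM in replicate 1. Nid1, which links laminin to type IV collagen, had 17.7 TPM in replicate 2 and 0.01 TPM in replicate 1. The laminin chain genes Lama2 and Lama5 had no read, and Lama1 was listed at 0 TPM in both libraries. Of 8 other small leucine-rich proteoglycans none was detected in both, 1 in each library alone and 6 in neither. Bgn, biglycan, had 0.18 TPM in replicate 2 and 38.0 TPM in replicate 1, opposite in direction to Dcn and Lum. Aspn at 2.41 TPM and Ogn at 0.93 TPM were read in replicate 2 alone, and Epyc, Fmod and Kera in neither.

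Of 21 genes for collagen folding, modification and export, 13 were detected in both libraries, 1 in replicate 2 alone, 4 in replicate 1 alone and 3 in neither. Ppib, a prolyl isomerase of the endoplasmic reticulum, had 571 TPM in replicate 2 and 460 TPM in replicate 1, and P4hb, the beta subunit of prolyl 4-hydroxylase, 405 TPM in replicate 2 and 298 TPM in replicate 1. Serpinh1, the collagen chaperone HSP47, had 95.0 TPM in replicate 2 and 122 TPM in replicate 1. Adamts2 and Adamts3, which remove procollagen propeptides, had no read, and the cross-linking enzyme gene Lox had 0 TPM in replicate 2 and 0.02 TPM in replicate 1. Of 18 matricellular and elastic fibre genes, 9 were detected in both, 6 in neither and 3 in replicate 1 alone. Mfap2, a microfibril protein, had 18.3 TPM in replicate 2 and 185 TPM in replicate 1, whereas Fbln1, fibulin 1, had 63.0 TPM in replicate 2 and 15.3 TPM in replicate 1. Fbln2, fibulin 2, had 25.1 TPM in replicate 2 and 45.3 TPM in replicate 1. Ccn2 was at 0 TPM in replicate 2 and 0.31 TPM in replicate 1, and the elastic fibre genes Eln and Fbln5 had no read.

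Of 20 matrix receptor genes, 8 were detected in both libraries, 7 in replicate 1 alone and 5 in neither. Itgb1, the beta chain of most collagen and fibronectin receptors, had 93.7 TPM in replicate 2 and 89.6 TPM in replicate 1, and Itga4, the alpha chain of a fibronectin receptor, 98.0 TPM in replicate 2 and 80.8 TPM in replicate 1. Sdc4, a heparan sulphate proteoglycan of the cell surface, had 54.8 TPM in replicate 2 and 9.62 TPM in replicate 1. Itga2 and Itga8 had no read, and Itga11 was at 0.01 TPM in replicate 2 and 0 in replicate 1. Of 11 proteases and inhibitors, 2 were detected in both, 1 in replicate 2 alone, 2 in replicate 1 alone and 6 in neither. Mmp2, a gelatinase, had 20.1 TPM in replicate 2 and 16.8 TPM in replicate 1, and its relative Mmp9 had no read. Timp3, an inhibitor of such proteases, had 29.3 TPM in replicate 2 and 31.2 TPM in replicate 1. Mmp14 stayed just under detection, at 0.97 TPM in replicate 2 and 0.91 TPM in replicate 1, and Adamts1 was at 0.01 TPM in replicate 2 and 0 in replicate 1. Serpine2, a protease inhibitor, had 0.05 TPM in replicate 2 and 39.9 TPM in replicate 1.

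Of 14 genes of the TGF-beta pathway, a main inducer of collagen genes, 4 were detected in both libraries, 3 in replicate 2 alone, 6 in replicate 1 alone and 1 in neither. The co-receptor gene Tgfbr3 had 32.6 TPM in replicate 2 and 24.2 TPM in replicate 1, while the signal transducer gene Smad2 had 0.08 TPM in replicate 2 and 31.9 TPM in replicate 1. Ltbp4, which binds latent TGF-beta, had 27.8 TPM in replicate 2 and 4.51 TPM in replicate 1, and the inhibitor gene Smad7 had no read. Of 10 other intermediate filament genes, 5 were detected in both, 1 in each library alone and 3 in neither. The epithelial keratin partners differed in opposite directions, with Krt18 at 50.3 TPM in replicate 2 and 139 TPM in replicate 1, and Krt8 at 100.2 TPM in replicate 2 and 33.9 TPM in replicate 1. Lmna, a lamin of the nuclear envelope, had 22.4 TPM in replicate 2 and 60.2 TPM in replicate 1, and Gfap, Prph and Synm had no read.

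Over these 10 lists with 136 genes, 49 were detected in both libraries, 10 in replicate 2 alone, 28 in replicate 1 alone and 49 in neither, of which 34 had no read. Over all protein-coding genes, 27.3% were detected in both, 7.07% in replicate 2 alone, 9.68% in replicate 1 alone and 55.9% in neither. Of the 48 whose mean TPM was 10 or more, 11 were higher in replicate 2 by 2-fold, 15 lower and 22 within, where 25.2% of all genes were higher and 25.8% lower. All 10 genes of the set were detected in both libraries, unlike this wider matrix list. Genes and lists were chosen by name with earlier results of these data known, so the choice itself may have shaped this difference. It was not tested.

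**Figure D5:**
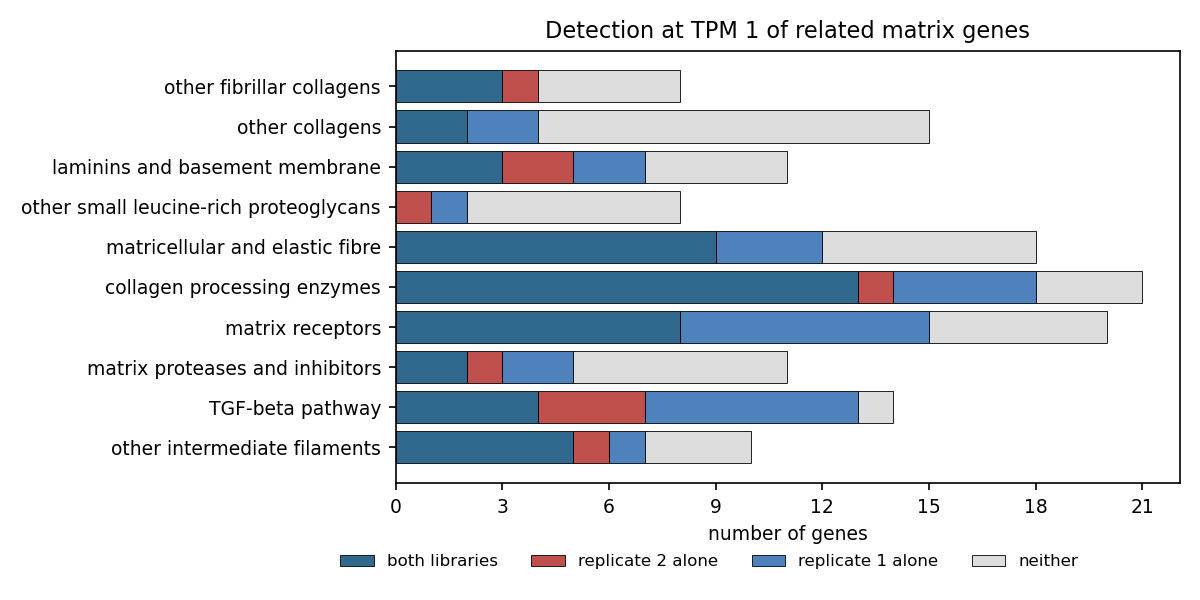
Number of genes of each matrix list at detection in both, 1 or neither of the libraries, as stacked horizontal bars. Collagen processing enzymes are mostly detected in both libraries, and most of the other collagens and other small leucine-rich proteoglycans are detected in neither.

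Markers of the cell types that the pooled tissue could hold are given beside these values. Their counts have the same background, with 27.3% of protein-coding genes detected in both, 7.07% in replicate 2 alone, 9.68% in replicate 1 alone and 55.9% in neither. Of 14 mesenchymal and stellate cell markers, 4 were detected in both libraries, 2 in replicate 2 alone, 3 in replicate 1 alone and 5 in neither, and they summed to 211 TPM in replicate 2 and 114 TPM in replicate 1. Acta2, smooth muscle actin, had 91.9 TPM in replicate 2 and 13.9 TPM in replicate 1, and Des, desmin, 23.5 TPM in replicate 2 and 36.2 TPM in replicate 1. Reln had 56.9 TPM in replicate 2 and 23.8 TPM in replicate 1. Without Acta2, the gene of highest mean in the list, the sum was 119 TPM in replicate 2 and 100.4 TPM in replicate 1. The stellate cell genes Lhx2, Ngfr, Lrat and Cygb had no read in either library, and Hgf was at 0.01 TPM in replicate 2 and 0 in replicate 1. Pdgfrb, a receptor of mesenchymal cells, had 0.01 TPM in replicate 2 and 11.0 TPM in replicate 1. The mesenchymal label thus rests on part of its marker list. The genes are named here by their matrix products, apart from Vim, which encodes an intermediate filament inside cells.

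Of 9 mesothelial markers, 2 were detected in both libraries, 1 in replicate 2 alone, 2 in replicate 1 alone and 4 in neither, with a sum of 182 TPM in replicate 2 and 75.8 TPM in replicate 1. Alcam had 123 TPM in replicate 2 and 29.8 TPM in replicate 1, and without it the sum was 59.0 TPM in replicate 2 and 46.0 TPM in replicate 1. Wt1 had 34.6 TPM in replicate 2 and 12.1 TPM in replicate 1, and Pdpn 24.3 TPM in replicate 2 and 0.05 TPM in replicate 1. Upk1b and Upk3b went the other way, unread in replicate 2 and at 22.2 and 11.6 TPM in replicate 1. Msln, Lrrn4 and Krt19 had no read in either, and Gpm6a was at 0 TPM in replicate 2 and 0.03 TPM in replicate 1.

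Of 14 endothelial markers, 9 were detected in both and 5 in replicate 2 alone, with a sum of 274 TPM in replicate 2 and 227 TPM in replicate 1. Ramp2 had 65.5 TPM in replicate 2 and 54.7 TPM in replicate 1, and Esam 36.3 TPM in replicate 2 and 23.2 TPM in replicate 1. Lyve1, a marker of sinusoidal endothelium, was lower in replicate 2, with 22.6 TPM there and 44.6 TPM in replicate 1. Of 15 heart muscle markers, 3 were detected in both, 4 in neither and 8 in replicate 2 alone, with a sum of 368 TPM in replicate 2 and 107 TPM in replicate 1. The heart muscle genes Myl7, at 93.5 TPM, and Myl2, at 36.5 TPM, were read in replicate 2 alone, and Tnnt2 had 36.3 TPM in replicate 2 and 0.07 TPM in replicate 1. Tnni1 and Actc1 were lower in replicate 2, with 37.0 and 30.3 TPM there against 56.3 and 43.5 TPM in replicate 1. Without Myl7 the list summed to 275 TPM in replicate 2 and 107 TPM in replicate 1, and Myh7, Myl3 and Nppa had none in either.

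Of 15 hepatoblast markers, 12 were detected in both libraries and 1 in each alone, with a sum of 10213 TPM in replicate 2 and 11673 TPM in replicate 1. The list was led by Afp, Apoa2 and Trf, and Epcam had no read. Hnf4a was unread in replicate 2 and had 34.8 TPM in replicate 1. Cdh1 had 8.06 TPM in replicate 2 and was unread in replicate 1. All 14 erythroid markers were detected in both, with 1814 TPM in replicate 2 and 2146 TPM in replicate 1. Of 9 megakaryocyte markers 5 were detected in both, with a sum of 1268 TPM in replicate 2 and 1048 TPM in replicate 1, led by Pf4, Ppbp and Itga2b. Without Pf4 the sum was 270.4 TPM in replicate 2 and 295 TPM in replicate 1, the opposite direction. Gp6 had 0.03 TPM in replicate 2 and 51.3 TPM in replicate 1. Of 12 macrophage markers 6 were detected in both, 3 in replicate 2 alone, 2 in replicate 1 alone and 1 in neither. They summed to 312 TPM in replicate 2 and 485 TPM in replicate 1, led by Fcer1g, Lyz2 and C1qb, while Cd68 had no read. Single genes were split, with 5 higher in replicate 2 and 6 lower. Tyrobp had 80.4 TPM in replicate 2 and 4.07 TPM in replicate 1, against the direction of the sum. Of the 8 marker sums, 5 were higher in replicate 2 (mesenchymal, mesothelial, endothelial, megakaryocyte and heart muscle) and 3 were lower. The part of these cell types in the values of the 10 genes was not tested.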

How the data were processed

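RNA-seq libraries of embryonic day 11.5 liver, 2 replicates of 1 group, were read from tables per gene and per transcript. Per the file headers, the deposited values are expected counts (estimated, need not be whole), TPM, FPKM (not used), posterior mean TPM, lengths in bases, the percent of a gene's abundance on each transcript, and credibility bounds, treated as a score since their level is not given. The assembly was mm10, per the labels, and the annotation GENCODE M4, per the deposited notes of each sample. The aligner and quantifier were not given in the sources used here. Among 69691 rows were 97 spike-ins and 26248 numeric identifiers, which count toward TPM totals but entered no gene comparison. Symbols and coordinates came from GENCODE M21 by identifier without version, matching 42462 of 43346 Ensembl rows, and 55 of the 56 transcripts matched.

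Ratios were log2((TPM + 1) of replicate 2 over replicate 1), centred on the median gene with mean TPM of at least 10, which understates differences of low genes. With 2 libraries of 1 group no p-value exists, and mean ± SD (n = 2) measures the spread between them. Chi-square per degree of freedom was 814 over 11205 genes with at least 20 reads, so they were not 1 library entered again. Read limits cover counting error only, since PCR copies are not independent molecules. The ratio computation was tested on simulated data with counting error alone. That checks the arithmetic and not the 2-fold calls in libraries that differ as much as these.

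The genes and lists were chosen with earlier results of these data known. Named are all 10 genes, the 3 highest of each list, up to 3 under TPM 1 in both libraries in alphabetical order, and the 3 list genes at each extreme of the ratio (here Myl7, Myl2 and Tnnt2, and Gp6, Lama4 and Serpine2). The leading erythroid markers are not reported here by name. Other markers named were chosen after their values were seen. Alternatives were other pseudocounts, centres, filters, units and detection limits, and leaving out a replicate. Python 3.11.15, numpy 2.4.6, pandas 2.3.3 and matplotlib 3.10.9 were used.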

Additional observations from a re-analysis of the deposited data

How the results depend on the processing

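All 10 genes stayed detected by posterior means and at 10 expected counts, and 8 of 10 at TPM 10. Detection at TPM 0.1 and in each library alone follows by construction from TPM 1 in both libraries. The summed share of 0.0826% ranged from 0.0634% to 0.102% with a replicate left out and was 0.204% of expected counts, which are not per length. The median centred log2 ratio of 0.73 became 0.34 with spike-in centring, 0.51 by CPM, 0.83 with the filter at mean TPM 1, and 0.34 on full-length coding transcripts alone, an alternative chosen after seeing the data. The count of genes higher in replicate 2 was 2 with spike-in centring, instead of 4. Dcn reached 1.01 with the filter at mean TPM 1, and Col3a1 fell short at 0.56 by CPM. With a replicate left out, Col1a1 over Col1a2 ranged from 0.748 to 1.30, Col4a1 over Col4a2 from 1.40 to 2.02, Col3a1 over type I from 0.949 to 1.18, and Dcn over Lum from 0.881 to 1.71, so Col1a1 over Col1a2, Col3a1 over type I and Dcn over Lum each lay on both sides of 1. Col3a1 over type I was 0.827 on full-length transcripts. On these the mean of Col4a1 over Col4a2 was 1.49, with Col4a1 at 17.2 TPM below Col4a2 at 17.8 TPM in replicate 1. Of the 136 wider matrix genes, 29 were detected in both at TPM 10, against 49 at TPM 1. Of 80 alternative ratios of single genes, 34 moved by more than the counting error of the gene's reads, 0.0377 to 0.13 on the log2 scale, and none past 2-fold changed direction. Without the gene of highest mean TPM, also chosen after seeing the data, the ratio of marker sums, replicate 2 over replicate 1, became 1.19 instead of 1.84 for mesenchymal, 1.28 instead of 2.40 for mesothelial and 0.918 instead of 1.21 for megakaryocyte markers, by construction since that gene carries much of each sum. Ratios need both libraries and could not be recomputed without either. Full-length sums drop fragments by construction. Spike-in centring and the filter at mean TPM 1 changed the centre by 0.393 and -0.096, which shifts every gene alike. For the other settings the cause was not tested. No paired analysis was possible because there is 1 group and the result comes from no test. Read depth limits genes near 3 reads, and the 10 genes lie well above that. The RNA input, equal to 1 cell per library, is a separate limit that the reads do not measure. Of genes detected in either library, 60.1% were detected in both. What this limit means for the levels of the 10 genes was not tested.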
